A study of Mus musculus with 12 samples.

Results

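Abcd2, Gm19277, Shisa3, Svep1 and Lman1l are 5 of the 24062 gene symbols counted in hearts of 2 mouse models of Lemd2 deficiency. They lie outside the familiar families of cardiac stress genes and moved the same way in both models. The members were chosen by their measured fold changes in the 2 genotype comparisons, so their values in these comparisons are given as a description, without a test. RNA-Seq libraries were made from 12 hearts in 4 groups of 3 mice. Adult WT mice at 2 months of age were compared with KI/KI littermates, which are homozygous for c.T38>G, a change of leucine to arginine introduced into Lemd2 by CRISPR in B6C3F1 zygotes and bred with C57BL/6N mice. At postnatal day 1 (P1), Lemd2-floxed mice without Cre, whose loxP sites flank exon 1, were compared with cKO mice, which carry the floxed gene and a Myh6-Cre (α-MHC) transgene. Cre is thereby limited to cardiomyocytes, and the other cells of the cKO heart keep an intact Lemd2 gene. Both P1 groups carry the floxed gene, and only the cKO group carries Cre, so loss of Lemd2 and presence of Cre cannot be told apart in that comparison.

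LEMD2 is a LEM-domain protein of the inner nuclear membrane, where it contacts chromatin and takes part in resealing the nuclear envelope. The 5 genes share no known pathway. Abcd2 encodes an ATP-binding cassette transporter of the peroxisomal membrane that brings very long-chain and unsaturated fatty acyl-CoA into the peroxisome for beta-oxidation. Gm19277 is a long intergenic noncoding RNA for which no function is described here. Shisa3 belongs to a family of transmembrane proteins. Some proteins of this family hold back Frizzled and fibroblast growth factor receptors in the endoplasmic reticulum (ER) and so dampen Wnt and FGF signaling. Svep1 (polydom) is a very large secreted matrix protein built of Sushi, EGF and pentraxin modules, a ligand of integrin α9β1 that lymphatic vessels need to remodel. Lman1l resembles LMAN1 (ERGIC-53), the mannose-binding receptor that carries glycoproteins from the ER to the Golgi.

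Levels are given as CPM, the reads of a gene relative to all reads assigned to genes in that library, with library totals scaled by the trimmed mean of M values (TMM) over the 12 hearts. The libraries held 37063669 to 44789753 counted reads, so that 3 reads corresponded to 0.067 to 0.0809 CPM before the TMM scaling. Lemd2 itself was read first as a check of the labels. It was 31.9, 34.7 and 33.0 CPM in the WT hearts and 25.6, 25.1 and 24.8 CPM in the KI/KI hearts, with no overlap (log2 fold change −0.39, SE 0.06, edgeR adjusted p = 0.181). In the floxed hearts Lemd2 was 24.4, 25.1 and 25.3 CPM, and in the cKO hearts it was 6.64, 13.1 and 11.3 CPM (log2 fold change −1.27, SE 0.22, edgeR adjusted p = 0.0142), a call that ended when floxed replicate 1 or 2 was left out, at log2 fold changes of −1.29 and −1.28. All 8 cardiomyocyte markers were detected in every group, with sums of 33200 to 94700 CPM. Hemoglobin genes were listed at 0 in every library. The cKO heart of replicate 4 had 617 CPM of Xist and 0.0805 CPM of 4 Y-linked genes summed, whereas the other 11 hearts had at most 2.03 CPM of Xist and at least 222 CPM of the Y-linked genes. The member values below were computed with and without that heart.

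The rows of the members were located in the mouse genome (GRCm38, GENCODE M21). Abcd2 lies on the minus strand at chr15:91145871-91191799, with 10 exons and 741 codons. Gm19277 lies on the same chromosome, also on the minus strand, at chr15:85149254-85156132, with 3 exons totalling 1165 bases and no coding sequence. Shisa3 is a gene of 2 exons and 238 codons on the plus strand at chr5:67607882-67623552, and it shares 138 exon bases with Atp8a1 on the opposite strand. Svep1 has 48 exons and 3567 codons on the minus strand at chr4:58042442-58206859, and it shares 2244 exon bases with Gm26889, an antisense noncoding RNA with no row in the count table. Lman1l has 13 exons and 505 codons on the minus strand at chr9:57607085-57620774. The sources used here do not give the strand setting of the counting, so reads from the shared bases of Shisa3 and Svep1 cannot be assigned to either strand.

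The sequences before the start sites of 4 of the 5 genes were found in the promoter table of RefSeq (GRCm38.p6), and they are shown because the genes moved together in both models while their promoters differ. The search covered 250 bases before to 50 bases after the start, on both strands, for the TATA box TATAAA, the SP1 box GGGCGG, the box named CCAAT, the AP-1 site TGANTCA, the TEAD site GGAATG, the CREB core TGACG, the E-box CANNTG and the p53 element, and no 2 of the capitalised matches overlap. The 250 bases before the start are printed 5′ to 3′ on the strand of the gene, with matches to the TATA, SP1 and TEAD letters or their reverse complements in capitals. They span chr15:85156133-85156382 for Gm19277, chr5:67607633-67607882 for Shisa3, chr4:58206597-58206846 for Svep1 and chr9:57620775-57621024 for Lman1l. The RefSeq start of Svep1 lies inside the GENCODE gene, so that its printed stretch does too.
Gm19277: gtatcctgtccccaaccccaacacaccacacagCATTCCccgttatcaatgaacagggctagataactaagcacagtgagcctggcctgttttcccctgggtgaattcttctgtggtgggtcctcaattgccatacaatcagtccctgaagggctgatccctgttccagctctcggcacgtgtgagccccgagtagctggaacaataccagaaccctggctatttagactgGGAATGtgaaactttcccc
Shisa3: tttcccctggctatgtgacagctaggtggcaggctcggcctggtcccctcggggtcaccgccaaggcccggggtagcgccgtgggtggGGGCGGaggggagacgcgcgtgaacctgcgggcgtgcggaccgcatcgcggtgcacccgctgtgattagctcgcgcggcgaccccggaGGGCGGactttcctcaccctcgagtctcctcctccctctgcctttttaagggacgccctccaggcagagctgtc
Svep1: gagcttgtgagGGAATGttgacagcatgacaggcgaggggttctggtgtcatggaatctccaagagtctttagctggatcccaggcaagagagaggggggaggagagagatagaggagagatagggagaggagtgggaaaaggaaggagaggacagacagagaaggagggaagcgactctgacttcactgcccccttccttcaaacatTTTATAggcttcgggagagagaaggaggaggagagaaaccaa
Lman1l: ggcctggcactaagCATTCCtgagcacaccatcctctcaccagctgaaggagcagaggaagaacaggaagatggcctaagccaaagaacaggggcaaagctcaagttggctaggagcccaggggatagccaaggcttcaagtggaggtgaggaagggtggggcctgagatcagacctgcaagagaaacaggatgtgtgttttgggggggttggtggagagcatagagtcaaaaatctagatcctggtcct

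GGAATG or its complement was present in Gm19277, at −217 and −19 from the start, in Svep1 at −239 and in Lman1l at −236, and 14.7% of the 32851 promoters of the table hold it. It was not in the window of Shisa3, which instead held GGGCGG at −162 and −74, as 35.7% of all promoters do at least once. The TATAAA match of Svep1 began at −42, and 13.6% of promoters hold these letters. E-boxes were found in Gm19277, Shisa3 and Lman1l, and 72.3% of promoters have at least 1. The CCAAT box, the AP-1 site, the CREB core and the p53 element, held by 37.4%, 7.81%, 20.8% and 8.36% of promoters, were in none of the 4 windows. Base composition separated Shisa3 from the others. Its window had 70.0% G and C and an observed to expected CpG ratio of 0.76, whereas Gm19277, Svep1 and Lman1l had 52.3%, 54.3% and 55.7% G and C and CpG ratios of 0.20, 0.30 and 0.14. The medians of all promoters were 52.7% and 0.38. A match is a run of letters and was not tested as a binding site.

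Members were chosen among the genes that DESeq2 called in both genotype comparisons in the same direction, with adjusted p below 0.05 and more than 2-fold change. DESeq2 called 157 genes in KI/KI versus WT and 844 in cKO versus floxed. Of these, 39 were called in both and moved alike, 32 of them higher and 7 lower, and 1 gene moved in opposite directions. All 5 members were among the 39. Shisa3, at a log2 fold change of 1.09 in cKO hearts, and Abcd2, at −1.20 in KI/KI hearts, were the members nearest to the limit of 1 in size. The 39 genes ranged from Gdf15, at 4.29 and 4.42, down to genes just inside the limit, such as Foxo6, at −1.01 and −1.09. Another 169 genes passed the adjusted p in both and moved alike without reaching 2-fold in both, and Bgn, at 0.97 and 1.04, and Lrrc4b, at −1.04 and −0.96, were the nearest outside. With edgeR, none of 14592 tested genes was called in KI/KI versus WT (0%), where 2363 genes (16.2%) had an unadjusted p under 0.05. In cKO versus floxed, 2.85% of 15317 tested genes were called higher and 1.78% lower, 34.6% had an unadjusted and 16.9% an adjusted p under 0.05, and 49.6% of the estimates were above 0.

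Abcd2 was more than 2-fold lower than in its controls in both models. The WT hearts had 22.6, 21.0 and 29.4 CPM and the KI/KI hearts 12.6, 10.3 and 8.95 CPM. At P1 the floxed hearts had 5.53, 4.80 and 5.31 CPM and the cKO hearts 2.27, 2.02 and 2.10 CPM. Every mutant heart was below every control heart of its age, and the 4 groups formed a series of WT, KI/KI, floxed and cKO in which no neighbours overlapped. The log2 fold change was −1.19 (SE 0.18) in KI/KI and −1.29 (SE 0.16) in cKO hearts, ratios of 0.437 and 0.41. Spread within a group was small in the P1 hearts, with coefficients of variation of 7.15% in floxed and 5.97% in cKO hearts against 18.4% in WT and 17.6% in KI/KI hearts. The highest WT value was in replicate 3, which also had the highest sum of 7 adipocyte markers, 110 CPM against 32.7 and 26.4 CPM in the other WT hearts. The adipocyte sums of the KI/KI hearts were 30.8 to 63.2 CPM and overlapped those of WT, and the part of these cells in the Abcd2 level was not tested.

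Gm19277, the other gene that was lower in both models, had the larger difference. It was 9.82, 9.27 and 7.67 CPM in WT hearts and 4.64, 2.99 and 2.47 CPM in KI/KI hearts. The floxed hearts had 3.94, 2.84 and 2.70 CPM, and the cKO hearts had 0.402, 0.334 and 0.556 CPM, from 59 reads in the 3 libraries together. The log2 fold change was −1.40 (SE 0.23) in KI/KI and −2.88 (SE 0.30) in cKO hearts. In cKO versus floxed it ranked 6 from the bottom of 15317 genes by fold change. The groups did not overlap in either comparison, but KI/KI and floxed hearts overlapped with each other, so that the order of levels was WT, then KI/KI and floxed together, then cKO. Among the 14592 and 15317 genes tested, the groups were apart in the lower direction in 11% and 19.3% of genes. Of the 8 cardiomyocyte markers, 0 had an estimate above 0 in KI/KI hearts (median −0.28) and 1 in cKO hearts (median −0.46), and edgeR called 0 and 1 of them lower. Their sums were 83100 to 94700 CPM in WT and 60800 to 84000 CPM in KI/KI hearts, which overlapped, and 43700 to 50000 CPM in floxed and 33200 to 37800 CPM in cKO hearts, which did not, and their part in the levels of Abcd2 and Gm19277 was not tested.

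**Figure D1:**
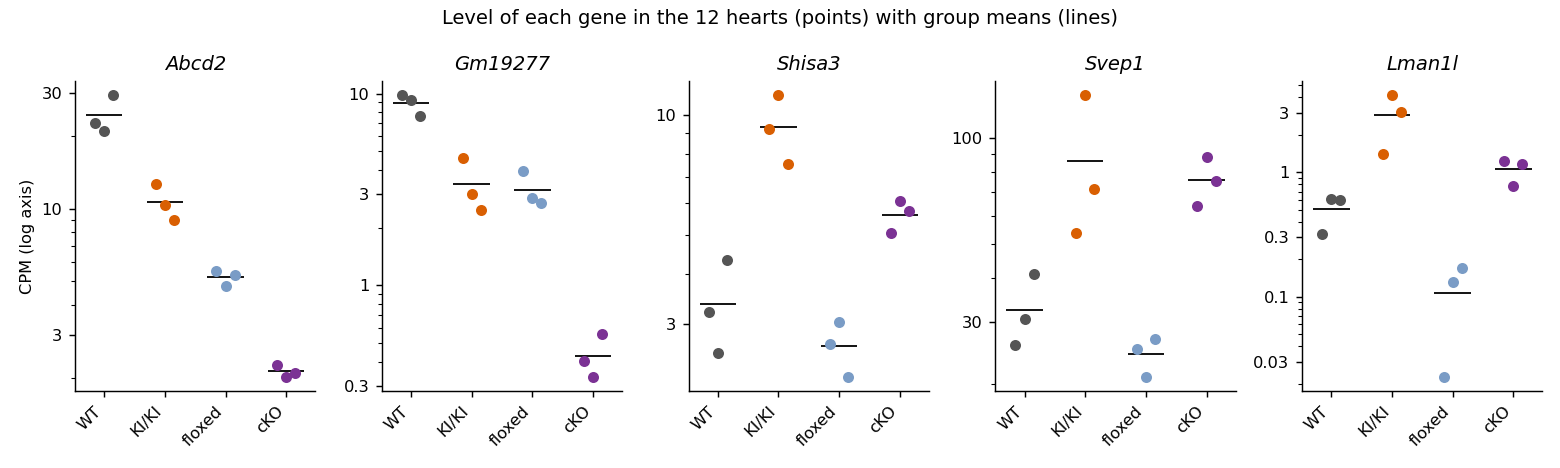
CPM of each gene (vertical log axis, with its own range in each panel) in the 12 hearts, 1 point per heart and a line at the mean of each group of 3. WT and KI/KI hearts are from adults and floxed and cKO hearts from P1 mice. Abcd2 and Gm19277 are lower and Shisa3, Svep1 and Lman1l higher in mutants than in controls at both ages, and Abcd2 in the floxed hearts, 4.80 to 5.53 CPM, is already below its level in the KI/KI hearts.

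Shisa3 was higher in both models. WT hearts had 3.21, 2.53 and 4.34 CPM and KI/KI hearts 9.22, 11.2 and 7.52 CPM. Floxed hearts had 2.67, 3.03 and 2.21 CPM, and cKO hearts had 5.07, 6.07 and 5.73 CPM. All mutant hearts were above all controls, and the KI/KI values lay above the cKO values without overlap, whereas the WT and floxed groups overlapped. The log2 fold change was 1.47 (SE 0.23) in KI/KI and 1.09 (SE 0.17) in cKO hearts. Its overlapping partner on the other strand, Atp8a1, a phospholipid flippase, had log2 fold changes of −0.19 and −0.48 and was not called in either comparison.

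Svep1 was also higher in both models, and its KI/KI hearts varied widely. It was 25.8, 30.6 and 41.0 CPM in WT and 53.4, 132 and 71.5 CPM in KI/KI hearts, a coefficient of variation of 48.3% in the mutants. In floxed hearts it was 25.0, 20.9 and 26.8 CPM, and in cKO hearts 64.1, 88.2 and 75.5 CPM. No mutant value reached down to the controls, the KI/KI and cKO groups overlapped, and so did WT and floxed. The log2 fold change was 1.41 (SE 0.35) in KI/KI and 1.64 (SE 0.14) in cKO hearts. Without KI/KI replicate 5, the heart with 132 CPM, the first of these was 0.94.

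Svep1 is made by fibroblasts and other mesenchymal cells, and the markers of fibroblasts are given beside it. The summed level of 8 fibroblast markers was 1770, 1760 and 1990 CPM in WT and 1990, 3050 and 2250 CPM in KI/KI hearts, highest in the same heart as Svep1. At P1 the sums were 2860, 3190 and 2830 CPM in floxed and 3410, 3970 and 4050 CPM in cKO hearts. All 8 markers had higher estimates in KI/KI hearts and 5 of 8 in cKO hearts, and 0 and 1 of them were called. The marker called in cKO hearts was Tcf21, at 24, 16.7 and 24.1 CPM in floxed and 58.8, 44.6 and 30.3 CPM in cKO hearts. It made up little of the sum. The P1 difference in the sum lay mostly in the collagen genes Col1a1 and Col1a2, which together were 2170 to 2500 CPM in floxed and 2760 to 3390 CPM in cKO hearts. The other 6 markers summed to 656 to 694 CPM in floxed and 576 to 778 CPM in cKO hearts, and to 1220 to 1400 CPM in WT and 1390 to 1690 CPM in KI/KI hearts, overlapping at both ages. In bulk hearts, more cells of a type and more RNA per cell cannot be told apart. As a ratio to the summed fibroblast markers, a scaling chosen after the data were seen and given in thousandths, Svep1 was 14.6, 17.4 and 20.6 in WT and 26.8, 43.4 and 31.9 in KI/KI hearts. The same ratio was 8.76, 6.54 and 9.47 in floxed and 18.8, 22.2 and 18.7 in cKO hearts. The log2 ratios on this scale were 0.96 in KI/KI and 1.27 in cKO hearts, each smaller than the unscaled 1.41 and 1.64. With both collagen genes left out of the sum, likewise chosen after the data were seen, the log2 ratios were 1.14 and 1.70. The second was above the unscaled value, so the size depended on the markers summed. Svep1 was chosen by these same comparisons, and the part of fibroblasts in its level was not tested.

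Lman1l had the largest fold difference of the 5 genes and was close to the limit of counting in the P1 controls. WT hearts had 0.321, 0.610 and 0.600 CPM and KI/KI hearts 1.40, 4.17 and 3.03 CPM. Floxed hearts had 0.0227, 0.131 and 0.170 CPM, which were 1, 6 and 8 reads, and cKO hearts had 1.23, 0.772 and 1.16 CPM. The 4 groups ran KI/KI, cKO, WT and floxed from high to low without overlap between neighbours. The log2 fold change was 2.50 (SE 0.50) in KI/KI and 3.23 (SE 0.48) in cKO hearts. Summed over the 3 hearts of a group, there were 328 reads in KI/KI against 52 in WT, a ratio of library-scaled counts of 6.07, and 146 reads in cKO against 15 in floxed, a ratio of 9.17. In cKO versus floxed, Lman1l passed the filter on low counts through the cKO hearts alone, so its presence among the tested genes depended on its being high there. For the members that were higher, groups were apart in the higher direction in 11.5% of genes in the adult and 20.5% in the P1 comparison.

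**Figure D2:**
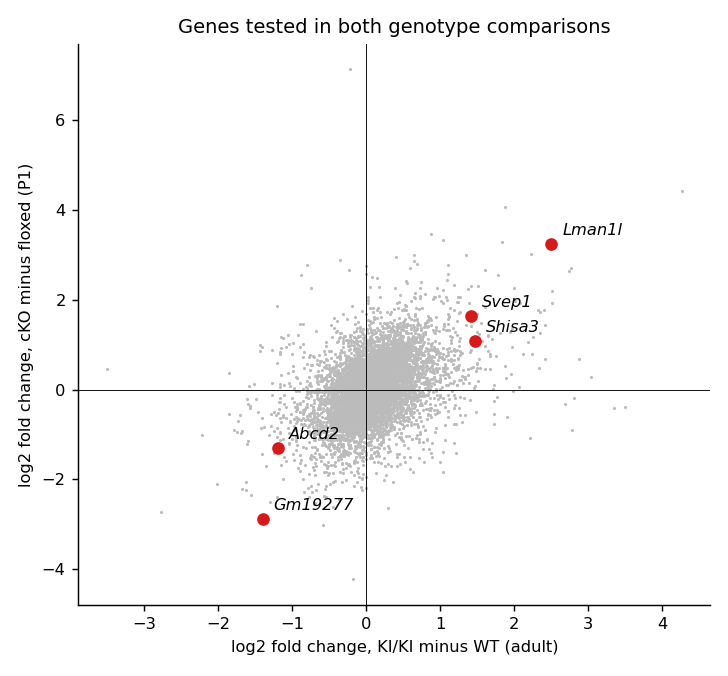
Log2 fold change in KI/KI versus WT (horizontal axis) against that in cKO versus floxed (vertical axis) for the 14244 genes tested in both comparisons, 1 grey point per gene, with the members in red. The members lie in the 2 quadrants of equal sign because they were chosen to, and Lman1l (2.50 and 3.23) and Gm19277 (−1.40 and −2.88) lie farther from 0 in the P1 comparison, whereas Shisa3 (1.47 and 1.09) lies farther in the adult one.

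To set the genes side by side, levels were divided by the merged exon length in GENCODE M21. The paper took its mm10 gene annotation from iGenomes, so this length need not match the bases counted. The orders below hold for this divisor. In WT hearts Gm19277 was the highest of the 5, at 7.66 ± 0.959 CPM per kilobase (SD, n = 3), followed by Abcd2 at 4.09 ± 0.751, Svep1 at 2.01 ± 0.485, Shisa3 at 0.707 ± 0.192 and Lman1l at 0.303 ± 0.0975. In KI/KI hearts Svep1 led with 5.32 ± 2.57 CPM per kilobase, and Gm19277, Shisa3, Abcd2 and Lman1l followed at 2.89 ± 0.973, 1.96 ± 0.384, 1.79 ± 0.314 and 1.70 ± 0.828, each within the SDs of its neighbour in that order, whereas in WT hearts no neighbours in the order were within their SDs. The order of the P1 controls was Gm19277 at 2.71 ± 0.586, Svep1 at 1.51 ± 0.189, Abcd2 at 0.877 ± 0.0627, Shisa3 at 0.555 ± 0.0872 and Lman1l at 0.0640 ± 0.0453 CPM per kilobase. In cKO hearts Svep1 was at 4.71 ± 0.746, Shisa3 at 1.18 ± 0.107, Lman1l at 0.625 ± 0.146, Gm19277 at 0.370 ± 0.0978 and Abcd2 at 0.359 ± 0.0214. The noncoding RNA thus went from the first place in floxed hearts to a level like that of Abcd2 at the bottom in cKO hearts.

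The difference between the 2 control groups was a contrast that the choice of members did not use, and edgeR could test it. The adult WT and P1 floxed hearts differ in age, in the floxed gene and in the mouse line, which cannot be told apart. In this comparison 13.9% of 15183 tested genes were called higher and 13.4% lower in floxed hearts. Abcd2 was lower in the floxed hearts by a log2 fold change of −2.22 (SE 0.16, adjusted p = 1.09e-05) and Gm19277 by −1.49 (SE 0.18, adjusted p = 0.00016). Shisa3 (−0.36, SE 0.24, adjusted p = 0.212) and Svep1 (−0.42, SE 0.18, adjusted p = 0.0742) were not called, and their control groups overlapped. Lman1l passed the filter on low counts here through the WT hearts alone, so that its estimate of −2.20 (SE 0.54) is a description and is not counted among the calls. Both genes that were lower in the mutants were thus lower in the P1 controls than in the adult controls. The estimates of the genes that were higher in the mutants were below 0 as well, that of Lman1l without overlap of the groups.

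The hearts of a group did not rank alike across the members. KI/KI replicate 5 was the highest of its group for Shisa3, Svep1 and Lman1l, and replicate 4 was the highest for Abcd2 and Gm19277. Among cKO hearts, replicate 5 had the highest Shisa3 and Svep1, the lowest Abcd2 and Gm19277, and also the lowest Lman1l. With log2 CPM centred on each age, the Pearson r between members over the 12 hearts ranged from −0.94, for Gm19277 with Lman1l, to 0.93, for Abcd2 with Gm19277, values that carry the difference between genotypes on which the genes were chosen. Centred on each group, the r between the same 10 pairs ranged from −0.61, again for Gm19277 with Lman1l, to 0.49 for Svep1 with Lman1l, and Abcd2 with Gm19277 was at 0.37. These are descriptions over 12 hearts that share libraries and scaling.

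The genes whose level rose and fell most like that of each member were listed by the same measure over 15728 genes and 12 hearts, centred on each age. They were Kat6a (r = 0.957), Celsr3 (0.946) and Abca12 (0.946) for Abcd2, and Slc35e2 (0.980), Rps6ka5 (0.976) and Ppp1r9a (0.976) for Gm19277. For Shisa3 they were Tnfrsf1a (0.935), the receptor of tumor necrosis factor, Lcp1 (0.932), an actin-bundling protein of leukocytes, and Gdf15 (0.931), a secreted stress cytokine. Svep1 was most like Cilp (0.982), a matrix protein of activated fibroblasts, Emilin1 (0.979), an elastic fiber glycoprotein, and Plxnb2 (0.975), a semaphorin receptor. Lman1l was most like B2m (0.966), the light chain of MHC class I, Pon2 (0.964) and Gm11974 (0.962). These r carry the genotype difference and do not measure the size of a change. Kat6a had log2 fold changes of −0.16 in KI/KI and −0.16 in cKO hearts, and Cilp of 2.77 and 2.70. When the log2 CPM was centred on each group instead, the lists were led by Dnah6 (0.935) for Abcd2, BC065397 (0.918) for Gm19277, Zmym3 (0.958) for Shisa3, Itih5 (0.990) for Svep1 and Slc1a2 (0.907) for Lman1l. Slc1a2 had log2 fold changes of 0.95 in KI/KI and −0.53 in cKO hearts, Itih5 of 0.75 and −0.03, and neither was called. Macrophage markers also moved with genotype. The summed level of 8 of them was 214 to 299 CPM in WT and 316 to 359 CPM in KI/KI hearts, and 112 to 124 CPM in floxed and 138 to 249 CPM in cKO hearts, with all 8 estimates higher in both comparisons, and their part in the levels of Shisa3 and Lman1l was not tested.

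Neighbouring genes on the chromosome were followed as well, 3 with a count row on each side of each member, 30 in all. In KI/KI versus WT 18 of them were tested and in cKO versus floxed 17, and edgeR and DESeq2 called none in either comparison (3 and 7 had an unadjusted p under 0.05 in edgeR, as did 16.2% and 34.6% of all tested genes). The log2 fold changes of the tested neighbours lay between −0.22 and 0.89 in KI/KI and between −0.48 and 0.54 in cKO hearts. Their medians were 0.12 and 0.17. Neighbours under the filter on low counts have no estimate in this range. Musk, 79101 bases from Svep1, was 0.153 to 0.257 CPM in WT and 0.268 to 0.869 CPM in KI/KI hearts. At P1 it was 0 to 0.113 CPM in floxed and 0.121 to 0.201 CPM in cKO hearts. Ribc2, 4684 bases from Gm19277, was 0.113 to 0.371 CPM in floxed and 0 to 0.101 CPM in cKO hearts. Its adult groups overlapped. Musk and Ribc2 were singled out after their counts were seen. Bend4, 179572 bases from Shisa3, had log2 fold changes of 0.89 and 0.54, with an adjusted p of 0.0387 in cKO hearts (edgeR) and a change under 2-fold. Txn1, which encodes thioredoxin and lies 86031 bases from Svep1, was at 0.07 and 0.46, with an adjusted p of 0.00928 in cKO hearts (edgeR), again under 2-fold. Slc2a13, a sugar transporter gene 75897 bases from Abcd2, was at 0.29 and 0.14, and the matrix gene Fbln1, 49817 bases from Gm19277, was at 0.14 and 0.19.

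**Figure D3:**
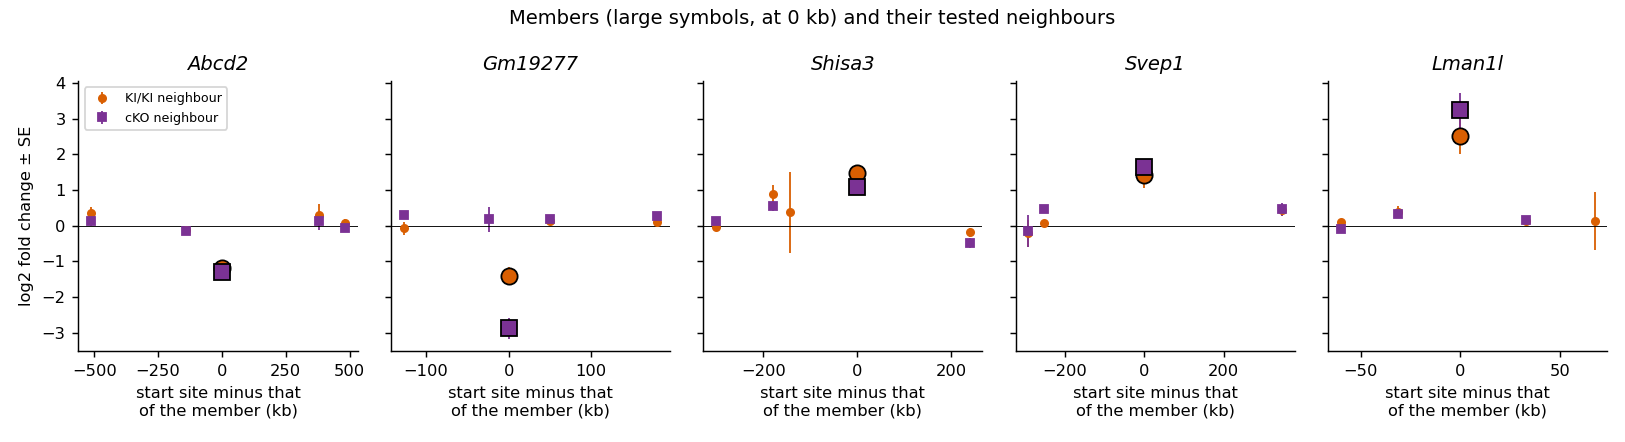
Log2 fold change ± SE (vertical axis) of each member, drawn large at 0 kb, and of its tested neighbours, against the start site of the neighbour minus that of the member on the chromosome in kb (horizontal axis, with its own range in each panel). Orange circles are KI/KI versus WT and purple squares are cKO versus floxed. The tested neighbours, which were not chosen by fold change, stay between −0.48 and 0.89. The members lie at −1.19 and below or at 1.09 and above, and they were chosen for large fold changes in these comparisons. Their distance from the neighbours was thus set in part by that choice. It does not show that a change is confined to the member.

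Among genes with a count row, and apart from Atp8a1, which overlaps Shisa3, the gene nearest to any member was Cplx3. Cplx3 encodes the synaptic protein complexin 3 and begins 804 bases beyond the end of Lman1l on the same strand. Its counts were too low for the filter. WT hearts had 1, 0 and 0 reads and KI/KI hearts 2, 13 and 8, and floxed hearts had 0 reads each whereas cKO hearts had 10, 5 and 2. Each mutant heart had more reads than each control heart of its age. The 23 reads of KI/KI against 1 of WT gave a ratio of library-scaled counts of 22.1 with a 95% exact binomial interval of 3.59 to 912. Set against an assumed floor of 3 reads over the floxed group, the 17 reads of cKO hearts gave a ratio of 5.34. That ratio leaves out the counting error of the 17 reads and is not a lower limit. Fitted without the filter, Cplx3 did not pass edgeR in either comparison (adjusted p = 0.265 and 0.0695). On the other side of Lman1l, 5872 bases away, Csk, a kinase that restrains Src, was at 0.14 and 0.17 and was not called. Cplx3 was singled out after its counts were seen.

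**Figure D4:**
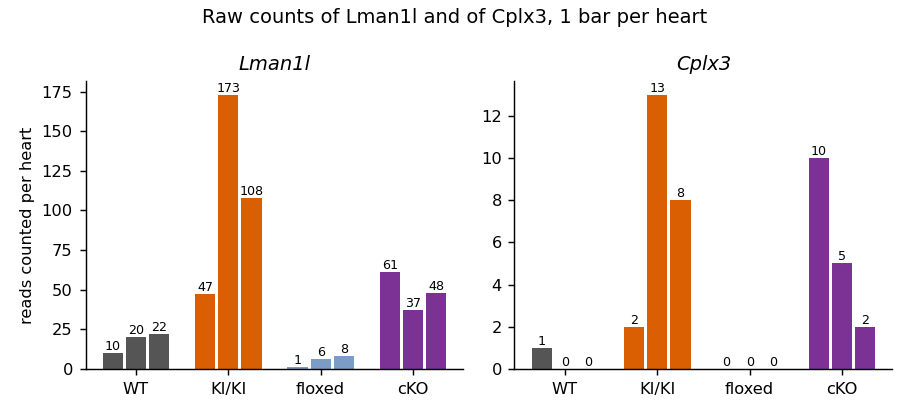
Raw read counts (vertical axes, from 0) of Lman1l and of Cplx3 in the 12 hearts, 1 bar per heart with its count above it, grouped by genotype. Cplx3 had 0 or 1 read in the 6 control hearts and 2 to 13 reads in the 6 mutant hearts, and Lman1l had 1 to 22 and 37 to 173 reads.

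Genes of the pathways around each member were tested from fixed lists, and edgeR called none of their genes in the KI/KI comparison, where DESeq2 called 1, the Wnt feedback gene Nkd2 (log2 fold change 1.47, DESeq2 adjusted p = 0.0349). Among the other genes of peroxisomal fatty acid import and oxidation, none of the 29 tested in adults and 27 tested at P1 was called by edgeR or DESeq2 (in edgeR, 1 and 14 were under 0.05 before adjustment, beside 16.2% and 34.6% of all genes), and the medians were −0.09 and −0.33, against 0.00 for all genes in both comparisons. In cKO hearts all 27 estimates were below 0, and 10 of them had an adjusted p under 0.05 without reaching a change of 2-fold, where 16.9% of all genes had an adjusted p under 0.05 and 49.6% of all estimates were above 0. Abcd3, a related transporter that carries branched-chain fatty acids and bile acid intermediates, was at −0.21 (SE 0.13) in KI/KI and −0.53 (SE 0.07) in cKO hearts. The part of the lower cardiomyocyte marker sums of the cKO hearts in the peroxisomal estimates was not tested. Of the genes of fatty acid elongation and desaturation, 10 were tested in adults and 11 at P1, with medians of 0.05 and 0.29, and edgeR called Fads3, a desaturase, at 1.08 (SE 0.17, edgeR adjusted p = 0.0102) in cKO hearts, a call that ended without cKO replicate 5 or floxed replicate 1 or 2 (0.94 to 1.02). The elongase gene Elovl7, at 1.00 (SE 0.16, edgeR adjusted p = 0.0108) in cKO hearts, lay at the 2-fold limit and was not called, whereas DESeq2 and several other settings gave 2 calls in this list.

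Relatives of Shisa3 and genes of Wnt signaling were among the lists. Of the other Shisa genes, 5 were tested in adults and 6 at P1 and none was called by edgeR or DESeq2 (2 and 1 had an unadjusted p under 0.05 in edgeR), with medians of −0.40 and −0.78. Shisa2 was at −0.63 and −0.70 and Shisa4 at 1.03 and 0.42. None of the 15 and 17 tested Frizzled, LRP and FGF receptor genes was called by either tool (2 and 6 had an unadjusted p under 0.05, beside 16.2% and 34.6% of all genes), and their medians were 0.14 and 0.12. Among 14 tested Wnt and beta-catenin targets at P1, Sp5, a transcription factor, was called at 2.71 (SE 0.66, edgeR adjusted p = 0.0348), from means of 0.140 CPM in floxed and 0.900 CPM in cKO hearts. With 9, 6 and 4 reads in floxed hearts, Sp5 passed the filter on low counts through the cKO hearts alone. Its call thus depended on its being high there, as with Lman1l. Wif1, a secreted Wnt inhibitor, was called at 1.01 (SE 0.17, edgeR adjusted p = 0.0125). Sp5 and Wif1 were 2 of 14 tested targets called higher at P1, beside 2.85% of all genes. In edgeR, 2 of 12 targets in adults and 5 of 14 at P1 had an unadjusted p under 0.05. The median of this list was −0.02 in KI/KI and −0.08 in cKO hearts. Leaving out floxed replicate 1, 2 or 3 ended both of these calls, leaving out cKO replicate 4 or 5 ended that of Sp5, and leaving out cKO replicate 6 ended that of Wif1.

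Binding partners of Svep1 and genes of lymphatic growth moved in both directions in cKO hearts. Angpt1, the activating ligand of the receptor Tie2, fell by 1.23 on the log2 scale (SE 0.19, edgeR adjusted p = 0.0101), and Prox1, the master regulator of lymphatic endothelium that cardiomyocytes also express, fell by 1.01 (SE 0.11, edgeR adjusted p = 0.00542). Foxc2, a transcription factor of lymphatic valves, rose by 1.21 (SE 0.27, edgeR adjusted p = 0.0281). The integrin subunit Itga9, part of the receptor that Svep1 binds, was at 0.40 in KI/KI and 0.80 in cKO hearts, and Pear1, another reported partner, was at −0.05 and 0.67, both under 2-fold. The medians of the list were 0.15 and 0.10, with 18 and 17 genes tested. In edgeR, 2 of the 18 and 9 of the 17 had an unadjusted p under 0.05, beside 16.2% and 34.6% of all genes. At P1, edgeR called 1 of the 17 higher and 2 lower, beside 2.85% and 1.78% of all genes. The sum of 7 lymphatic endothelial markers was 181 to 213 CPM in floxed and 128 to 218 CPM in cKO hearts, overlapping, and Ccl21a was at 0 in every library. Among EGF-repeat and Sushi matrix genes, 26 tested in adults had a median of 0.24 and 29 tested at P1 a median of 0.32. Estimates were above 0 for 21 of the 26 and 21 of the 29, beside 50.5% and 49.6% of all genes. In edgeR, 10 and 11 had an unadjusted p under 0.05, beside 16.2% and 34.6% of all genes. At P1, edgeR called 1 of them higher and 1 lower, beside 2.85% and 1.78% of all genes. Sned1 fell by 1.89 (SE 0.24, edgeR adjusted p = 0.00688) and Srpx2 rose by 1.48 (SE 0.26, edgeR adjusted p = 0.0144) in cKO hearts. Leaving out cKO replicate 5 or floxed replicate 1 ended the calls of Angpt1, Foxc2 and Srpx2, leaving out floxed replicate 2 ended those of Foxc2 and Srpx2, floxed replicate 3 or cKO replicate 6 that of Prox1, and cKO replicate 4 or floxed replicate 3 that of Foxc2. Only Sned1 of these 5 kept its call without each of the 6 hearts.

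Around Lman1l, none of the 31 tested genes of ER-to-Golgi cargo receptors and COPII coats was called by edgeR or DESeq2 in either comparison, and 5 in adults and 19 at P1 had an unadjusted p under 0.05 in edgeR, beside 16.2% and 34.6% of all genes. Lman1 itself, the receptor that Lman1l resembles, was at −0.08 (SE 0.06) in KI/KI and 0.28 (SE 0.11) in cKO hearts, and its partner Mcfd2 was at 0.01 and 0.25. The medians were 0.03 and 0.25, and 27 of 31 estimates were above 0 in cKO hearts, 9 of the 31 with an adjusted p under 0.05, beside 49.6% and 16.9% of all genes. Lman1l, at 2.50 and 3.23, was above every gene of the list, but it was chosen for its fold changes and the list was not. Kdelr3, a retrieval receptor of ER proteins, was the highest of the list at 0.72 and 0.84. The difference between the effects in the 2 models was tested for list genes and neighbours only, since for the members it is built from the comparisons that chose them, and 2.43% of 15729 genes differed across the whole table.

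**Figure D5:**
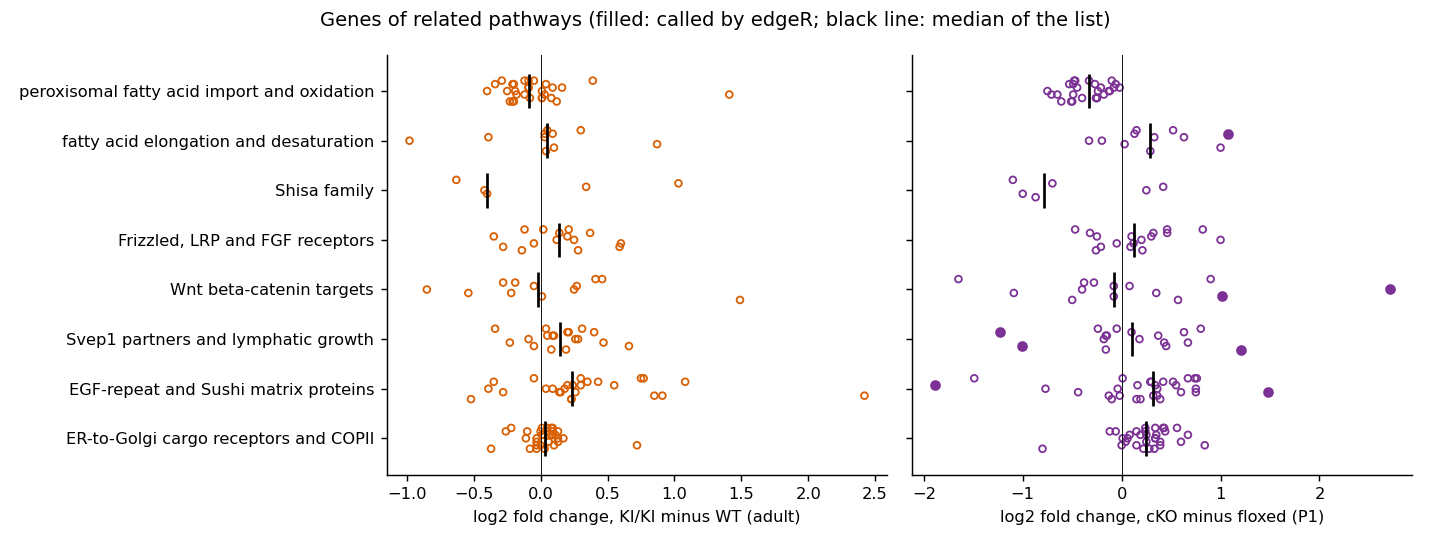
Log2 fold change (horizontal axes, with their own range) of every tested gene of the 8 related lists in KI/KI versus WT and in cKO versus floxed, 1 circle per gene, filled where edgeR called it, with a black line at the median of the list. No circle is filled in the adult panel, and in the P1 panel all 27 peroxisomal genes lie left of 0.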

How the data were processed

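RNA-Seq was performed on polyA RNA of 12 mouse hearts, 1 library per mouse, read as 75-cycle single ends. The deposited values are raw read counts per gene: the authors removed adapters with Trim Galore, used STAR 2.7.2b for alignment to mm10, SAMtools 1.9, and HTSeq to count reads per gene, whose strand setting is not given in the sources used here. Totals per library were 37063669 to 44789753, and intervals cover counting error only. The ratio to a floor leaves out the counting error of the reads set against it.

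Groups were taken from the sample labels, with 3 hearts each. The members and the gene lists were chosen with earlier results of these data known. Each comparison was fitted on its own 6 libraries with the quasi-likelihood test of edgeR 4.0.16 in R 4.3.3 (TMM, filterByExpr, robust), Benjamini-Hochberg adjusted over all tested genes, and calling required an adjusted p below 0.05 and more than 2-fold change. The difference between the 2 effects was the interaction in a fit of all 12 libraries, called on the adjusted p alone. SEs were derived from the F statistic. Fits were tested on simulated counts. DESeq2 1.42.0, other scalings and filters, and fits without each heart were the alternatives. Beside the members, the text names Lemd2, up to 4 called genes of each list, the 3 nearest genes on each side and the 3 genes most correlated with each member (log2 CPM, prior count 2), with relatives and partners of the members added for context after their values were seen. Positions came from GENCODE M21 (GRCm38, the build of mm10), where 23640 of 24062 symbols had 1 position, and promoters from RefSeq.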

Additional observations from a re-analysis of the deposited data

Results flagged for a closer look

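Among the 175 list genes and neighbours tested for a difference between the 2 effects, 11 differed at an adjusted p under 0.05 in the interaction test of edgeR over 12 hearts, which called 2.43% of all genes. The values are the log2 effect in cKO hearts minus that in KI/KI hearts, and the genes are not members. The effect was lower in cKO than in KI/KI hearts for Angpt1 (−1.43), Sned1 (−1.37), Prox1 (−1.09) and the peroxisomal bifunctional enzyme Ehhadh (−0.75). It was higher for Wif1 (1.88), Fads3 (1.04), Pear1 (0.72), the elongation enzyme Hsd17b12 (0.61), the ER cargo proteins Tmed9 (0.56) and Kdelr2 (0.54), and Txn1 (0.39), a neighbour of Svep1. The 2 models differ in age, allele and Cre, which cannot be told apart here.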

How the results depend on the processing

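All 124 values under other settings of the members' genotype differences kept their direction, for which the members were chosen, and 0 moved by more than 1 SD between hearts. With 1 heart left out, Shisa3 fell to as low as 0.97 in cKO hearts and Svep1 to 0.94 in KI/KI hearts. Both lie under the log2 limit of 1 used in the choice. The differences between floxed and WT hearts of Abcd2, Gm19277, Shisa3 and Svep1 kept their direction and stayed on the same side of the threshold in 52 of 52 alternatives. The ratio of Svep1 to fibroblast markers, added after the data were seen, gave 0.96 in KI/KI and 1.27 in cKO hearts, the second of which moved by more than 1 SD, and 1.14 and 1.70 without the 2 collagen genes. The counts over all genes were less stable, and the cause was not tested. In KI/KI versus WT, edgeR called 0 higher and 0 lower genes, DESeq2 110 and 47, and a fit of all 12 libraries 21 and 11. Leaving out each heart gave 0 to 27 higher and 0 to 11 lower genes, the most without KI/KI replicate 4. In cKO versus floxed, 437 higher and 273 lower genes became 1427 and 1160 with no fold threshold. Leaving out each heart gave 58 to 601 higher and 45 to 356 lower genes, with the fewest without floxed replicate 1, and counts under the main one by more than 1.5 times also without floxed replicate 2 and cKO replicate 5. In floxed versus WT, 2103 and 2029 became 5074 and 4823 with no fold threshold. For the difference between effects, 184 higher and 199 lower genes became 746 and 564 with DESeq2 and 116 higher without the filter on low counts, and leaving out each heart gave 25 to 487 and 26 to 437. Replicate numbers in the labels belong to different mice. Same-numbered hearts correlated at −0.54 to −0.24 (WT with floxed) and 0.09 to 0.21 (KI/KI with cKO) in their deviations, so the numbers were not taken to pair them, and with a replicate block the difference between effects gave 0 and 0 genes and floxed versus WT gave 2060 and 2004. A depth of 3 reads, up to 0.0809 CPM before the TMM scaling, limits Lman1l in floxed hearts and Cplx3.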
